A study of Mus musculus with 3 samples.

Results

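Ceacam genes encode adhesion proteins of the immunoglobulin superfamily, and 8 of them were followed here: Ceacam1, Ceacam2, Ceacam10, Ceacam12, Ceacam16, Ceacam18, Ceacam19 and Ceacam20. They were chosen by name out of 24346 gene symbols, and they account for 15 of the 34535 isoforms listed. The samples were distal colon of WT mice aged 8 weeks, strain JAX (a supplier's name) and treatment steady-state, from which polyadenylated RNA was sequenced. The series holds 3 libraries and 1 group, with no contrast between conditions, and the labels do not say whether the libraries came from separate animals. FPKM, fragment counts divided by isoform length and by library depth, were used as the authors deposited them, and isoforms of a symbol were summed to give the gene. Each value is a mean over the 3 files ± SD, and Ceacam positions are on chromosome 7 of GRCm38, counted from 1.

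CEACAM1 is the best known of the family. Its outer part is a chain of immunoglobulin-like domains that binds other CEACAM molecules on neighbouring cells, and in the mouse it is also the receptor of mouse hepatitis virus. Splicing sets the number of outer domains and the length of the cytoplasmic tail. The long tail carries immunoreceptor tyrosine-based inhibitory motifs, which bind the phosphatases SHP-1 and SHP-2, and the short tail has none. In the intestine the protein sits on the apical surface of epithelial cells, and it is also found on endothelium and leukocytes.

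The tail choice rests on a single exon, shown here because all long and short values below turn on it. The alternative tail exon of Ceacam1 has 53 bases (chr7:25465468-25465520, minus strand), all of them coding. Its length leaves a remainder of 2 when divided by 3, so that it shifts the reading frame.
alternative tail exon: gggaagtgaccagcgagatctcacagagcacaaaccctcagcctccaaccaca
In the long forms the transmembrane exon is joined to it, and in the short forms to the next tail exon of 32 bases (chr7:25464849-25464880). The junctions are given with 25 bases on each side, the capitals marking what follows the transmembrane exon.
long junction: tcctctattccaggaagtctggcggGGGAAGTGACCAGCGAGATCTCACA
short junction: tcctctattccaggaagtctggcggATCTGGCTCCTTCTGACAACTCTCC
In the GENCODE M21 transcripts matched by accession, the 4-domain long form codes for 521 amino acids and the 4-domain short form for 458. The 2-domain long form codes for 341 and the 2-domain short form for 278. The annotated stop codon lies in the 32-base exon in both short forms and in the last exon in both long forms.

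The 4 listed Ceacam1 isoforms could be told apart by length. They measure 3143, 3196, 3683 and 3736 bases, which gives a difference of 53 bases within each pair and of 540 bases between the pairs. The 53 bases are the alternative tail exon. The 540 bases are the exons of 285 and 255 bases that code for the A1 and B domains, the middle domains that the 2-domain forms lack. The exons of the matched GENCODE transcripts gave the same assignment for all 4.

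**Figure D1:**
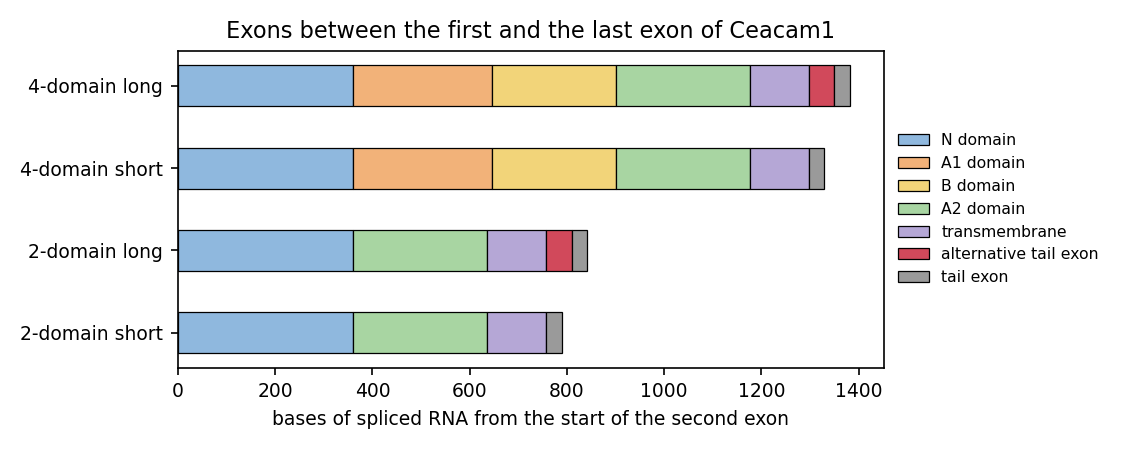
Exons of the 4 Ceacam1 forms between the first and the last exon, drawn to scale in bases of spliced RNA. The 4-domain forms hold the A1 and B exons of 285 and 255 bases, and the long forms hold the alternative tail exon of 53 bases.

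The 3 files held 3.78e+06, 3.79e+06 and 1.24e+06 mapped fragments in replicates 1, 2 and 3, as recovered from the deposited bounds. In 8771 genes with 1 isoform, the variance between files was a median of 0.679 times the sampling variance, against 0.685 in simulated data with no change. A chi-square test with Benjamini-Hochberg adjustment called 7 genes (0.0798%), against 2 in the simulated data, and 437 had an unadjusted p under 0.05. The names of the files share an index and a lane and differ in a running number. As the median ratio lay close to the simulated one, the files were counted as 1 sample, although their origin is not settled. An SD here is a measurement error with no estimate of the spread between animals. The distal colon label was checked against position and cell markers: Hoxb13 stood at 195 ± 0.610 FPKM, Hoxd13 at 97.9 ± 2.29 and Cdx2 at 6.21 ± 0.865.

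Ceacam1 was the highest of the family and stood among the abundant transcripts of the colon. It was listed at 611, 589 and 599 FPKM in replicates 1, 2 and 3, a mean of 600 ± 10.6 FPKM and rank 125 of 24346 symbols. All 3 files lay within a narrow band. In bulk tissue such as this, fewer cells of a type and less RNA per cell cannot be told apart. The gene spans 25461702 to 25477625 on the minus strand. Its neighbours in the order of all genes were Rpl13a at 609 ± 21.0, Ubb at 604 ± 26.4 and Rpl8 at 600 ± 11.4 FPKM above it, and Eef2 at 598 ± 22.6, Uqcrb at 597 ± 23.1 and Rpl3 at 595 ± 11.6 FPKM below it. These are genes of the ribosome, of translation elongation, of ubiquitin and of the respiratory chain, and the ranges of all 6 over the files overlap that of Ceacam1.

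Ceacam2, a close relative of Ceacam1 and next to it in the order of the family, stood at 113, 112 and 116 FPKM, a mean of 114 ± 1.99 FPKM (25516042 to 25540004, minus strand). It held rank 554. Ceacam20, a protein of intestinal microvilli that the phosphatase Ptprh dephosphorylates, stood at 68.6, 73.0 and 70.4 FPKM, a mean of 70.6 ± 2.2 FPKM and rank 905 (19965412 to 19991111, plus strand). Its values rested on about 698, 747 and 230 fragments. Both genes varied little between files.

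Ceacam10, which codes for a secreted protein, stood at 23.9, 21.7 and 24.5 FPKM, a mean of 23.4 ± 1.49 FPKM and rank 2805 (24777204 to 24784655, plus strand). About 78.0, 70.5 and 26.9 fragments lie behind these values. Ceacam18 was the most variable of the family at 7.16, 5.07 and 9.52 FPKM, a mean of 7.25 ± 2.23 FPKM and rank 6977 (43634739 to 43649294, plus strand). It was measured from about 47.5, 33.4 and 21.0 fragments, and its bounds overlap in all 3 files. By the chi-square test over the 8771 genes, its adjusted p was 0.994, that of Ceacam20 0.998 and that of Ceacam10 0.998.

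Ceacam12, Ceacam16 and Ceacam19 were listed at 0 in every file. For the 3 files together, a count of 3 fragments would make 0.382 FPKM for Ceacam12, 0.231 for Ceacam16 and 0.107 for Ceacam19, limits that cover counting error only. Ceacam16 is known from the tectorial membrane of the inner ear, and Ceacam12 belongs to a group known mostly from the trophoblast. All 3 isoforms of Ceacam12 were at 0. They lie at 18065929 to 18077986 on the plus strand, and Ceacam16 (19852097 to 19861299) and Ceacam19 (19875742 to 19887965) on the minus strand.

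Ranked by level, the order was Ceacam1, Ceacam2, Ceacam20, Ceacam10 and Ceacam18, followed by the genes at 0. No neighbours in this order overlapped over the files. Ceacam1 was 5.27 ± 0.114 times Ceacam2, and Ceacam2 was 1.61 ± 0.0647 times Ceacam20, the narrowest gap of the order. Ceacam20 was 3.04 ± 0.285 times Ceacam10, and Ceacam10 was 3.4 ± 0.852 times Ceacam18. On the log2(FPKM + 1) scale, Ceacam1 exceeded Ceacam20 by 3.14, 3.00 and 3.07 in replicates 1, 2 and 3.

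**Figure D2:**
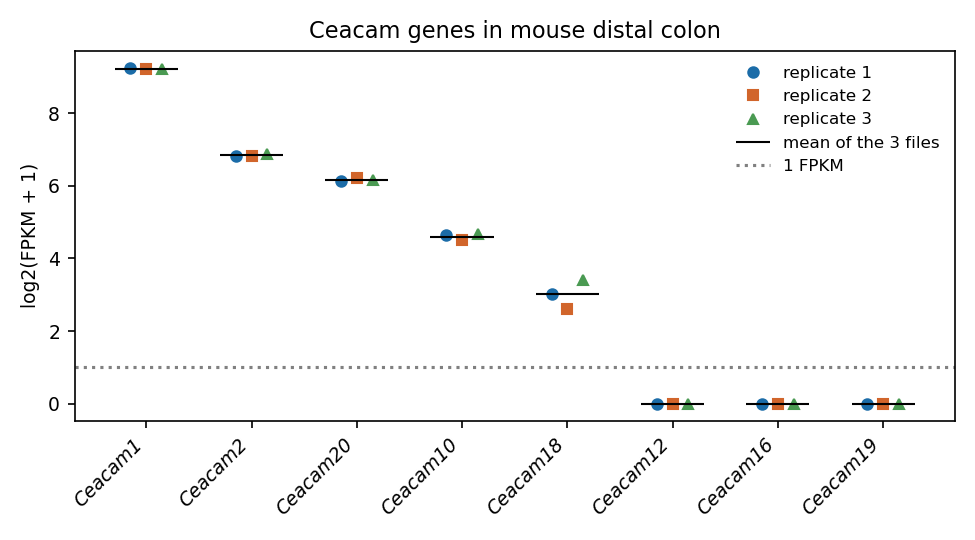
Level of each Ceacam gene as log2(FPKM + 1), with 1 point per file, the mean as a bar and 1 FPKM as a dotted line. The files lie on top of each other for Ceacam1 and Ceacam2, they spread from 5.07 to 9.52 FPKM for Ceacam18, and 3 genes are at 0.

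The 8 genes summed to 815 ± 11.8 FPKM, or 0.191% of all FPKM. Ceacam1 held 73.6% ± 0.524 of that sum, Ceacam2 14.0% ± 0.202, Ceacam20 8.68% ± 0.395, Ceacam10 2.86% ± 0.146 and Ceacam18 0.888% ± 0.265. A level of 1 FPKM or more in every file was reached by 5 of the 8 genes, and 48.5% of all symbols reached it. Of all symbols, 29.9% were at 0 in every file.

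By the listed values, the short tail made up nearly all of Ceacam1. The short forms together stood at 586, 549 and 578 FPKM and the long forms at 24.2, 40.7 and 20.8 FPKM. The long tail share was thus 3.96%, 6.91% and 3.47% of the gene, a mean of 4.78% ± 1.86. The ratio of short to long forms ranged from 13.5 to 27.8, with replicate 2 at the low end. Both tail exons are identical in Ceacam2. With the Ceacam2 forms added the long tail share was 14.7%, because the only 4-domain form listed for Ceacam2 has the long tail. That value is therefore not a corrected share for Ceacam1.

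Forms with 4 outer domains exceeded those with 2. The 4-domain forms summed to 413, 407 and 402 FPKM and the 2-domain forms to 198, 182 and 197 FPKM, so that 67.9% ± 1.03 of Ceacam1 had 4 domains. The ratio of 4-domain to 2-domain forms was 2.12 ± 0.101 and the files lay close together, between 2.04 and 2.23. Counted as fragments and not per length, the 4-domain share was 71.5%.

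By the listed values, the single forms kept one order in every file. The 4-domain short form led at 394, 375 and 386 FPKM (64.2% ± 0.431 of the gene), which made it isoform 181 of 34535 by mean. The 2-domain short form followed at 193, 173 and 193 FPKM (31.0% ± 1.45), the 4-domain long form at 19.0, 31.7 and 16.3 FPKM (3.74% ± 1.44) and the 2-domain long form at 5.16, 9.0 and 4.49 FPKM (1.04% ± 0.423). The authors' 95% bounds of neighbouring forms did not overlap in any file. The narrowest gap was in replicate 3, between the 4-domain long form (lower bound 10.6 FPKM) and the 2-domain long form (upper bound 7.54 FPKM). Between files, such bounds lay apart in 25.4% to 30.6% of isoforms of genes with several isoforms. They may thus be too narrow for isoforms, and the gap between forms was not tested. The split of each tail between 4-domain and 2-domain forms is also an estimate, since the tail and domain exons lie apart in the RNA.

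By the listed values, the tail and the domain number were not split in the same proportion. Among the 4-domain forms, 4.61%, 7.79% and 4.05% had the long tail, and among the 2-domain forms 2.61%, 4.94% and 2.28%. In each file the listed long tail share was thus higher with 4 domains. The A2 exon of 276 bases and the transmembrane exon of 121 bases lie between the middle domain exons and the tail exons. How many fragments reached from one to the other is not known, so the pairing of tail and domain number may rest largely on the authors' estimation. Seen the other way, 78.3% ± 0.383 of the long forms and 67.4% ± 0.898 of the short forms had 4 domains. With the files counted as 1 sample, the difference was not tested.

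Replicate 2 was the highest file in both long forms, and its bounds lay apart from the others in the 4-domain long form. There it had bounds of 27.0 to 36.4 FPKM, above those of replicate 1 (15.4 to 22.6) and of replicate 3 (10.6 to 22.0). For the 2-domain long form the bounds of replicate 2, 6.56 to 11.4 FPKM, overlapped those of both others. Of the 6 Ceacam1 and Ceacam2 isoforms with a mean of at least 1 FPKM, 1 had bounds apart between replicates 1 and 2, 0 between replicates 1 and 3 and 1 between replicates 2 and 3. Among 6688 isoforms of genes with several isoforms, bounds lay apart in 25.4%, 30.6% and 30.5% of cases for these pairs. A gap between the bounds of files was therefore common for isoforms of such genes. Without replicate 2 the long tail share of Ceacam1 was 3.71%.

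**Figure D3:**
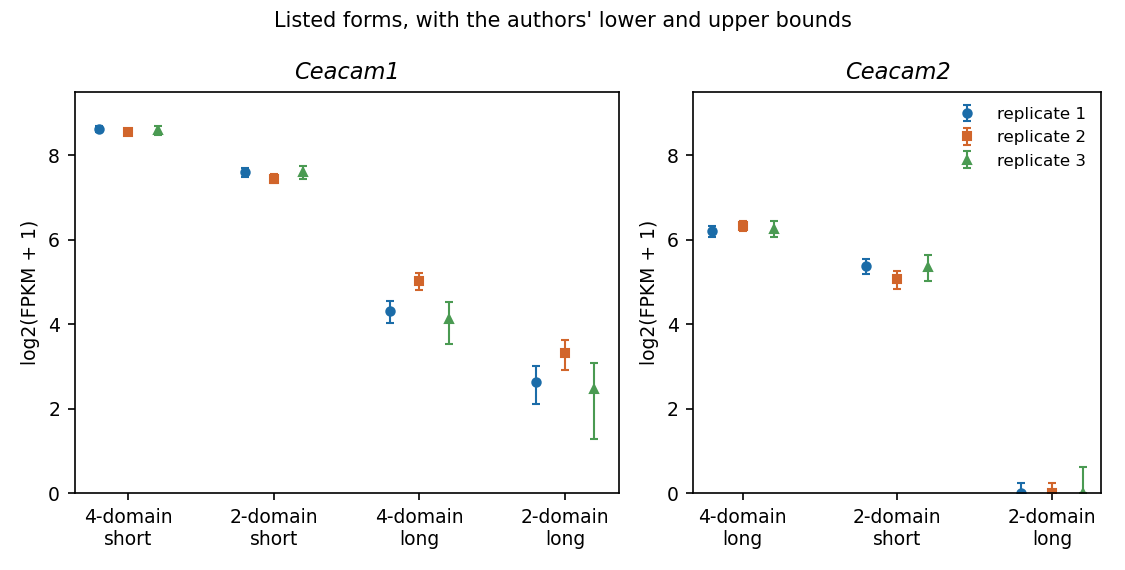
Level of each listed form of Ceacam1 (left) and Ceacam2 (right) as log2(FPKM + 1), with 1 point per file and the authors' lower and upper bounds as bars. In Ceacam1 the short forms are far above the long ones, and the 4-domain long form of replicate 2, at 31.7 FPKM, lies above the other files.

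The leading form of Ceacam1 held less of its gene than the median of genes with several isoforms. The gap was smaller against genes with 4 isoforms. Over 1762 genes that have several isoforms and reach 10 FPKM on average, the highest isoform held a median of 81.0% of its gene, and in 219 of them with 4 isoforms a median of 70.1%. The 64.2% of Ceacam1 was above the value of 21.3% of the 1762 genes, and the 66.9% of Ceacam2 above that of 25.1%. The shares describe this sample and were not tested.

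Ceacam2 was listed with 3 forms, and by length they are a 2-domain short form, a 2-domain long form and a 4-domain long form. A 4-domain short form is not listed for it, so that any fragment of its middle domains could be assigned only to a long form. The 4-domain long form stood at 72.6, 79.7 and 75.8 FPKM (66.9% ± 3.70 of the gene). The 2-domain short form stood at 40.6, 32.4 and 40.1 FPKM, and the 2-domain long form at 0.00225, 0.00514 and 0.00994 FPKM. Among the 2-domain forms of Ceacam2, nearly all of the FPKM was thus on the short tail. Any short-tail fragment of Ceacam2 could, however, be assigned only to the 2-domain short form. The tail split of its 2-domain forms therefore cannot be told from these values. Ceacam1 exceeded Ceacam2 to a similar degree in both classes, by 5.37 ± 0.294 times for the 4-domain forms and 5.14 ± 0.421 times for the 2-domain forms.

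The exons that set these forms are the ones that Ceacam1 and Ceacam2 share. Between the 4-domain long forms, the B exon was identical over all 255 bases, and so were the alternative tail exon over 53 bases and the next tail exon over 32 bases. The A1 exon differed at 6 of 285 bases (A3C, T9C, C15T, G47A, A106C and T239C, with the Ceacam1 base first and positions counted from the start of the exon). The N domain exon was identical at 77.5% of 360 bases, the A2 exon at 86.6% of 276 bases and the transmembrane exon at 79.3%. The last 25 bases of the transmembrane exon, which join the tail exons, differed at 4 positions. In the matched transcripts of the 2-domain short forms, the stop codon starts in exon 4 of 6 for Ceacam2 and in exon 5 of 6 for Ceacam1. Identical tail exons therefore do not mean that the short tails of the proteins are the same. The first 120 bases of the N domain exon, which codes for the outermost domain, are shown because they tell the genes apart. Capitals mark the 27 positions at which they differ.
Ceacam1 (chr7:25476584-25476703, minus strand): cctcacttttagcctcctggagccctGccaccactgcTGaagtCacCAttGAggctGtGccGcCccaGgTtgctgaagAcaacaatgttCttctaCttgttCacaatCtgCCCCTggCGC
Ceacam2 (chr7:25538814-25538933, minus strand): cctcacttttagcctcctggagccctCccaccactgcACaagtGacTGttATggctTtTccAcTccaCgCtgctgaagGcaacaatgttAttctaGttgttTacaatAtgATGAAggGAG

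**Figure D4:**
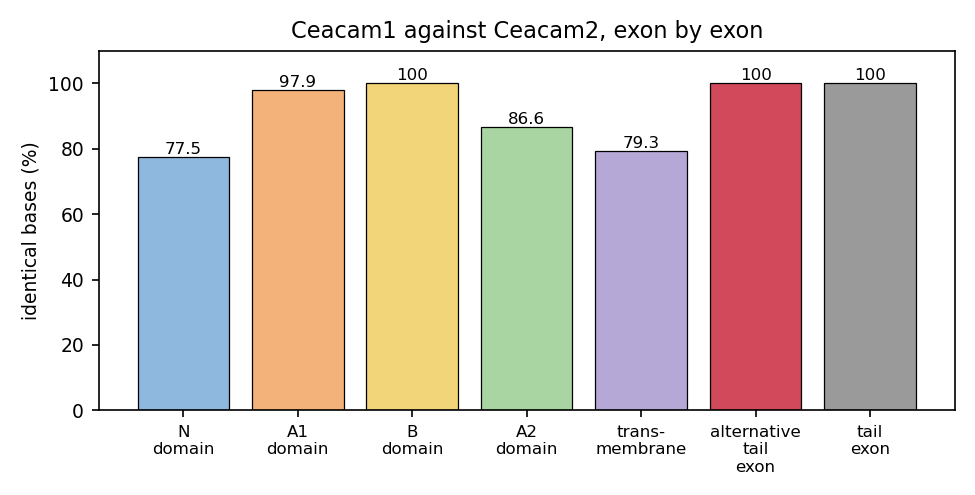
Identical bases between Ceacam1 and Ceacam2, in percent, for each exon between the first and the last. The B exon and both tail exons are at 100%, the A1 exon is at 97.9%, and the N domain exon is the lowest at 77.5%.

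Of the stretches of 50 bases in the GENCODE transcripts of Ceacam1, 48.9% also occurred in a transcript of another gene, for the most part Ceacam2, and of those of 100 bases 33.6%. The longest match of at least 97% identity between the genes had 1630 bases at 98.8%. The sources used here give neither the read length nor how reads with several possible origins were handled. How much of the FPKM of either gene, and of their middle domain and tail forms, was read from the other therefore cannot be told apart in these files. With the forms of both genes added together, the 4-domain share was 67.8%. Ceacam10, Ceacam18, Ceacam19 and Ceacam20 had no match of 100 bases at 97% identity. Among the genes at 0, Ceacam12 had a match of 190 bases with Gm44613 and Ceacam16 one of 277 bases with Gm19345. GENCODE M21 lists 11 Ceacam1 transcripts, 7 of them coding, against the 4 in the files, and forms outside those 4 were not analysed here.

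The rest of the family was nearly silent. Of 8 other symbols that start with Ceacam (Ceacam3, Ceacam5, Ceacam9, Ceacam11, Ceacam13, Ceacam14, Ceacam15 and the pseudogene Ceacam-ps1), 7 were at 0 in every file, and Ceacam9 stood at 0.664 FPKM in replicate 3 and at 0 in the other files. Of the 13 pregnancy-specific glycoprotein genes, placental relatives of the Ceacam genes, 0 reached 1 FPKM in every file and 7 were at 0 throughout. The highest was Psg23 at 0.984, 0.525 and 0.399 FPKM, followed by Psg17 at 0.413, 0.688 and 0 FPKM. Psg19, Psg22, Psg25 and Psg29 had means of 0.0739, 0.0516, 0.0607 and 0.0668 FPKM.

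Ceacam1 exceeded all 20 adhesion genes of the immunoglobulin superfamily that were listed beside it. All 20 reached 1 FPKM in every file, and their median was 9.73 ± 0.613 FPKM, against 1.25 FPKM for all symbols. Gpa33, an intestinal surface antigen, led at 249 ± 2.96 FPKM, followed by the junctional molecules F11r at 86.7 ± 1.02 and Cxadr at 55.7 ± 0.132 and by nectin 3 (Pvrl3) at 34.8 ± 0.749 FPKM. Ceacam20 exceeded all of them but 2.

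The brush border, the microvillus surface that carries Ceacam1 and Ceacam20, was well represented. Each of its 12 listed genes passed 1 FPKM in all files, and the median of the list was 61.6 ± 1.49 FPKM. The protocadherin Cdhr5 stood at 228 ± 3.71 FPKM, ezrin (Ezr) at 195 ± 6.98, villin (Vil1) at 134 ± 3.37 and Myo1a, a myosin of microvilli, at 109 ± 1.09 FPKM. Ceacam1 was higher than each of the 12, and Ceacam20 was higher than 6 of them.

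Of 14 genes for partners and signalling of CEACAM1, 13 reached 1 FPKM in every file (median 20.8 ± 0.746 FPKM). The phosphatases that bind the long tail stood at 8.91 ± 0.979 FPKM for Ptpn6 (SHP-1) and 18.4 ± 1.83 FPKM for Ptpn11 (SHP-2). The kinase Src, which phosphorylates the long tail, stood at 19.6 ± 1.35 FPKM and the adaptor Shc1 at 21.8 ± 0.966 FPKM. The long forms of Ceacam1, at 28.6 ± 10.7 FPKM together, were thus of the same order as these. The receptors that CEACAM1 modulates stood at 11.7 ± 0.902 FPKM for Insr (insulin), 6.59 ± 0.441 for Egfr and 8.12 ± 0.678 for Tlr4. Calmodulin, which binds both tails, was abundant, with Calm2 at 449 ± 7.78 and Calm3 at 133 ± 8.48 FPKM. The scaffold genes were also high, with Flna at 116 ± 2.2, Ctnnb1 at 174 ± 4.91 and Anxa2 at 334 ± 14.8 FPKM. Havcr2 (TIM-3), a checkpoint receptor of T cells and a reported CEACAM1 ligand, was at 0.413, 0.206 and 1.57 FPKM.

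The partners of Ceacam20 were all present. Ptprh, the microvillus phosphatase that dephosphorylates it, stood at 19.3, 18.2 and 14.6 FPKM, and Syk, the kinase that binds its phosphorylated tail, at 6.75, 8.40 and 9.12 FPKM. Ceacam20 exceeded both in every file. Factors known in human cells to regulate the alternative tail exon of CEACAM1 were also present, with Hnrnpl at 95.7 ± 2.67, Hnrnpa1 at 102 ± 6.82 and Hnrnpm at 40.6 ± 0.252 FPKM. Hnrnpa1 and Hnrnpm are uncertain because each has a match of 100 bases or longer, at 97% identity or higher, in a transcript of another gene. By the same search Calm2, Ctnnb1, Cxadr, Ptpn6 and Shc1 are uncertain too.

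**Figure D5:**
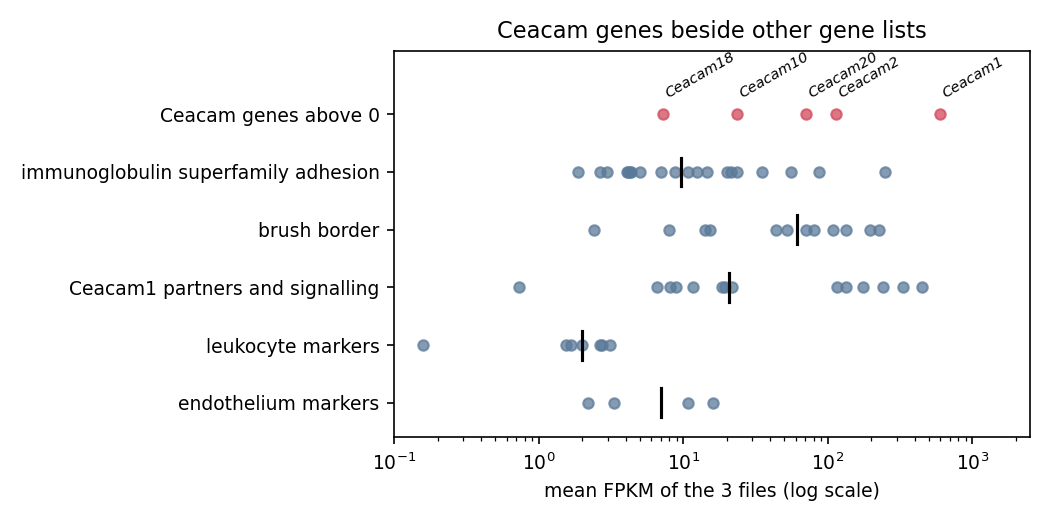
Mean FPKM of the 3 files on a log axis, with 1 point per gene and the median of a list as a bar, for the Ceacam genes above 0 and for other lists. Ceacam1, at 600 FPKM, lies to the right of every gene of the lists drawn. Among lists not drawn, 2 goblet genes, 1 surface colonocyte gene and 1 smooth muscle gene exceeded Ceacam1.

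Markers of endothelium and leukocytes, the other cells that carry CEACAM1, were listed as well. The 4 endothelial genes summed to 30.2 to 34.5 FPKM, and each passed 1 FPKM in all files. Of 7 leukocyte genes 5 did so, with a summed level of 13.2 to 14.6 FPKM over all 7. The neutrophil genes S100a8, S100a9 and Mpo were at 0 in every file. Their limits, at 3 fragments over the 3 files, were 1.49, 0.953 and 0.143 FPKM, so a low level of S100a8 or S100a9 could be missed. Mpo and 3 of the leukocyte genes are uncertain, since each matches a transcript of another gene in the search described above. Surface colonocyte genes summed to 1752 to 1780 FPKM, with Car4 at 817 ± 13.5 and Krt20 at 212 ± 0.228 FPKM. Goblet cell genes summed to 3317 to 3440, crypt base genes to 49.5 to 53.8 and smooth muscle genes to 1556 to 1602 FPKM. The level of a marker does not give the part of its cell type in the Ceacam levels, and that part was not tested.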

How the data were processed

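Isoform tables of 3 libraries were analysed, 1 per library. FPKM values with lower and upper 95% bounds were deposited by the authors, per the file headers, which are those of Cufflinks. The coverage signal, also deposited by the authors, was not used. Per the submitters' processing notes, the tools were Cufflinks 2.2.1, TopHat2 2.1.1 and Bowtie2 2.3.4.3. The notes name GRCm39, but 17256 of 22999 genes (75.0%), and 5 of the 8 members, share a start or an end with RefSeq genes of GRCm38.p6, so GRCm38 is printed. Members and gene lists were chosen with earlier results of these data known.

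FPKM were summed per symbol, with no rescaling. Fragments were recovered by reading the upper bound less the FPKM as 2 standard errors. The slope of fragments per FPKM on length gave the depth. It was fitted in genes with 1 isoform longer than 800 bases and up to 30 fragments, of which 65.6% to 65.8% were whole within 0.01. The limit for a gene at 0 is 3 fragments over the 3 files at its shortest length less 164 bases. Limits cover counting error only.

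Files were compared by a chi-square test on 8771 genes that have 1 isoform and average 1 FPKM or more. The test was run on simulated counts of those genes, in which 56.0% of genes changed 2-fold in replicate 3 were recovered. The genes named follow a rule: all members and their isoforms, the partners and splicing regulators, the 4 highest of the other lists, any other Ceacam or Psg gene above 0, and the 3 genes on each side of Ceacam1. The marker genes Car4, Krt20, S100a8, S100a9 and Mpo and those of colon position fall outside it and were picked after their values were seen. Nectin genes were read under their Pvrl symbols. Ly6g was not analysed here, and some genes of the lists are not reported here by name. Exon sequences are those of GENCODE M21 transcripts, cut at the annotated exon ends, and copies were sought with BLAST+ 2.17.0. The comparison of bounds between files and the sum of the Ceacam1 and Ceacam2 forms were added after the values had been seen. Alternatives covered rescaling, the highest isoform, depth weights, fragments, bounds, thresholds, pseudocounts and each file left out. Tables were computed in Python 3.11.15 (SciPy 1.17.1, pandas 2.3.3, numpy 2.4.6) and drawn with matplotlib 3.10.9.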

Additional observations from a re-analysis of the deposited data

How the results depend on the processing

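Rescaled to TPM, Ceacam1, Ceacam2, Ceacam20, Ceacam10 and Ceacam18 stood at 1404, 266, 165, 54.6 and 17.0. With only the top isoform of each gene, Ceacam1 stood at 385 and Ceacam2 at 76.0 FPKM, and Ceacam1 held 68.5% of the family. Ceacam1 and Ceacam2 summed held 87.6% of it. The 4-domain share was 71.5% by fragments. With the Ceacam2 forms added, the long tail share was 14.7%, because the only 4-domain form listed for Ceacam2 has the long tail. At 2 FPKM, 2 leukocyte genes passed in place of 5. With a file left out, the files were called different for 4 to 6 genes, Ceacam1 stood at 594 to 605 FPKM, its long tail share at 3.71% to 5.43% and its 4-domain share at 67.4% to 68.3%. Over 161 settings of 29 results, 147 moved a value by no more than its SD or a count by no more than 1.5 times. Much of this tally was fixed in advance. Leaving out 1 of 3 files cannot move a mean by more than its SD, and genes at 0 stay at 0. Of the 74 settings that left no file out, 62 stayed within these margins, those of genes at 0 among them. A change of direction could not show in levels, shares or counts, which are never negative. No paired analysis was possible because the series holds 1 group. The 3 files were counted as 1 sample, and at 21.0 fragments in replicate 3 Ceacam18 is limited by depth.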
